A study of Mus musculus with 6 samples.

Results

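The genes described here encode the machinery that attaches ubiquitin to histone H2B. They are the E3 ligase genes *Rnf40* and *Rnf20*, the E2 enzyme genes *Ube2a* and *Ube2b*, the ligase adaptor gene *Wac*, and *Paf1*, *Ctr9*, *Leo1*, *Cdc73* and *Rtf1* of the PAF1 complex. They were chosen by symbol for their role, with earlier results of these data known, and all 10 were present among the 24015 genes counted. RNA-Seq was performed on mouse sciatic nerves at postnatal day 14 to ask how nerve RNA differs once Schwann cells have lost *Rnf40*. There were 3 control and 3 Rnf40ΔSC libraries, each prepared from a pool of 3 nerves. Control mice were Rnf40 fl/fl. Rnf40ΔSC mice carried the same floxed alleles together with a *Dhh::Cre* transgene, in which the *Dhh* promoter drives Cre in the Schwann cell lineage. No control carried Cre, so that effects of Cre and of the deletion cannot be told apart. All libraries have the same strain label, a mixed background of 129SvJ and C57Bl/6J, whereas the methods name C3H in place of 129SvJ. The labels likewise name the NEB Next Ultra kit and the methods a directional NEXTFLEX kit, again for both genotypes.

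As background, RNF40 and RNF20 are RING proteins that act together as a complex and pass ubiquitin from the E2 enzymes UBE2A or UBE2B to histone H2B. WAC tethers the ligase to RNA polymerase II, and the PAF1 complex travels with the elongating polymerase and stimulates the reaction. The mark accompanies transcription and favours methylation of histone H3, and in nerve the ligase acts in Schwann cells, which form the myelin sheaths around axons.

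The conditional allele carries loxP sites around exons 3 and 4 of *Rnf40*. The gene lies at chr7:134732212-134747119 on the plus strand of mm9, and its annotated transcript has 20 exons and 4154 bases. Exon numbers are those of this GENCODE transcript, which were assumed to match those of the allele. Exon 3 (chr7:134733026-134733193) has 168 bases and exon 4 (chr7:134733271-134733412) has 142 bases, and both are coding. Together they hold 310 bases, or 7.46% of the transcript, and division by 3 leaves a remainder of 1, so that their loss shifts the reading frame. Joining exon 2 to exon 5 places the first stop codon in frame at codon 130 of a reading frame that normally has 1001 codons. That stop starts at base 49 of exon 6 (chr7:134734829-134734950). The 3 exons are shown 5′ to 3′ from the plus strand because they define the deletion, and capitals in exon 6 mark the stop codon met after the frame shift.
Rnf40 exon 3: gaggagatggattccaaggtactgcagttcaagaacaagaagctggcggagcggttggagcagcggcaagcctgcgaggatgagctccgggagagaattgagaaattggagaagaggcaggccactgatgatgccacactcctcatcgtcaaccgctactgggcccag
Rnf40 exon 4: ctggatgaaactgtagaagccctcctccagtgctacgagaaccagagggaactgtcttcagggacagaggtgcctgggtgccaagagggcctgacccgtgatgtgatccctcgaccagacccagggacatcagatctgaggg
Rnf40 exon 6: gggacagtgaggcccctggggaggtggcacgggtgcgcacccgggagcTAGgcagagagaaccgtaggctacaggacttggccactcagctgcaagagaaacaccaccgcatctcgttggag

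The E2 genes are paralogs on different chromosomes, with *Ube2a* on chromosome X (chrX:34414353-34424210, plus strand) and *Ube2b* on chromosome 11 (chr11:51798999-51814264, minus strand). Their coding sequences each have 459 bases, of which 356 (77.6%) are identical, and the longest identical stretch is 17 bases. Only uniquely mapped reads were counted, so that the counts of these paralogs are uncertain to the extent that reads within similar stretches were dropped. The stretch from codon 74 to codon 102 surrounds the cysteine codon at position 88, which encodes the residue that carries ubiquitin. It is shown from GENCODE transcripts in the coding direction, and capitals mark the 17 of its 87 bases at which the genes differ.
Ube2a: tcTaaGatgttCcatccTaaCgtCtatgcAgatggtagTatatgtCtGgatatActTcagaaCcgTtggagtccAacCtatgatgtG
Ube2b: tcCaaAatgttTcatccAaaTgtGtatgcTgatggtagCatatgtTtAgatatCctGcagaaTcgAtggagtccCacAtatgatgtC

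Summed over genes, control replicates 1, 2 and 3 held 1317167, 1992622 and 2468765 counts, and Rnf40ΔSC replicates 1, 2 and 3 held 2184268, 1459387 and 2186710. At this depth the 10 genes had between 27 (*Cdc73*) and 339 (*Wac*) raw counts in a library, for which counting error alone is 19.2% and 5.43% of the value. Normalised counts are raw counts brought to 1 shared library size with TMM factors, which allow for differences in RNA composition. Adjusted p-values of genes come from the quasi-likelihood test of edgeR with Benjamini-Hochberg adjustment over the 11371 genes tested, unless another tool is named. Genes were called when this value did not exceed 0.05.

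Of the 10 genes, 6 were called, compared with 31.6% of all genes tested. *Rtf1*, *Rnf20*, *Ube2b* and *Paf1* were higher in Rnf40ΔSC nerves (4 genes, against 15.4% of all genes called higher), and *Rnf40* and *Ube2a* were lower (2 genes, against 16.2% called lower). With 10 counts required in every library, 6 of the 10 were again called, beside 34.9% of all genes. The libraries of the genotypes did not overlap for 5 of the 10 genes, compared with 43.5% of all genes tested, which is close to that background. None of the 10 reached an absolute log2 fold change of 0.8 at a base mean of at least 20 (0 with edgeR, and 0 with DESeq2 with or without a fold-change prior), limits that 8.78% of all genes passed in edgeR, while 6 of the 10 had an unadjusted p under 0.05 in edgeR, beside 41% of all genes. DESeq2 called only 2 of the 10 (*Rnf40* and *Rtf1*), beside 16.4% of all genes without and 17.2% with a fold-change prior. The fit without control replicate 3 called 3 of the 10, beside 23.5% of all genes, and that without Rnf40ΔSC replicate 1 called 2, beside 25.1%. Without control replicate 1 or 2, 4 of the 10 were called, beside 26.5% and 24.9% of all genes. Without Rnf40ΔSC replicate 2 or 3, 6 were called, beside 26.9% and 34%. The DESeq2 fits and those without control replicate 3 or Rnf40ΔSC replicate 1 gave shares near their background. A share of 10 genes is coarse, so that the 4 called without control replicate 1 or 2 are not clearly above theirs. Whether the 10 genes differ from all genes in this respect was not tested.

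**Figure D1:**
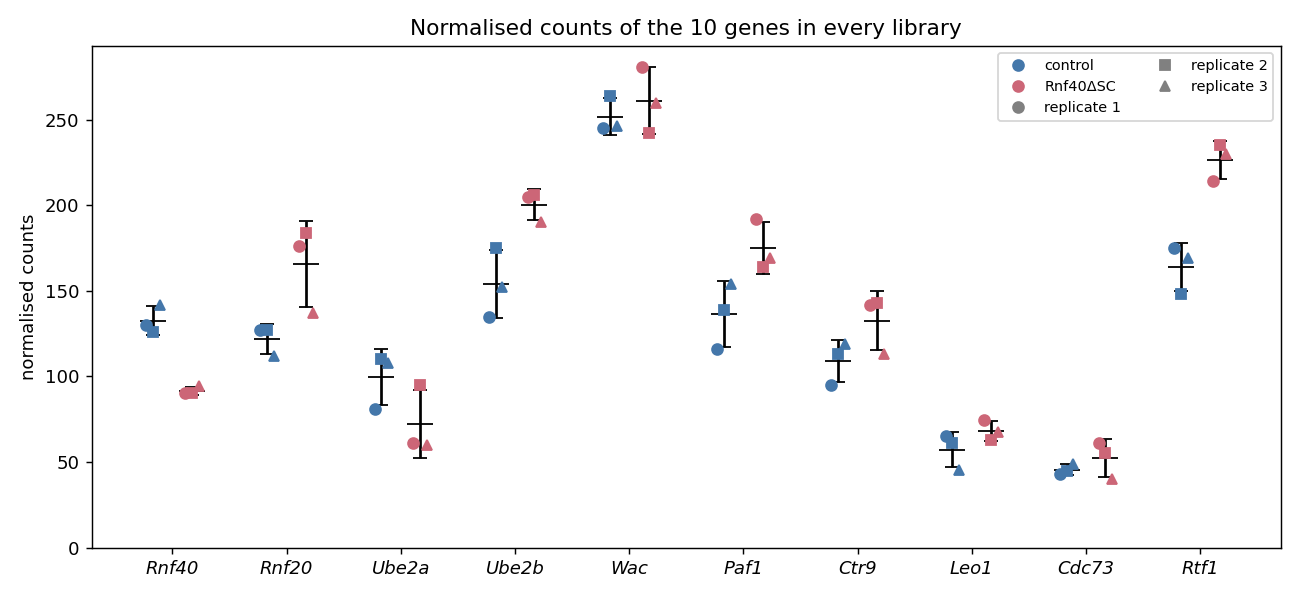
Normalised counts (vertical axis) of the 10 genes in each of 3 control and 3 Rnf40ΔSC libraries, with a bar for the mean and whiskers for the SD. *Rnf40* lies between 126 and 142 in control and between 90.2 and 94.2 in Rnf40ΔSC libraries, whereas *Wac* overlaps between the genotypes.

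The scaling mattered for these values. TMM gave a median log2 fold change of 0.00 over all genes tested, and 51.2% of calls were lower. Scaling by library totals moved that median by 0.27, left 18.9% of calls lower and called 7 of the 10 genes, all of them higher, beside 40.9% of all genes called and 33.1% called higher, with *Rnf40* and *Ube2a* no longer called. No gene of the 10 changed direction under any of the 15 alternatives. The median log2 fold change of the 10 genes was 0.27 with TMM and 0.54 with library totals, each beside the median of all genes just given for that scaling.

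**Figure D2:**
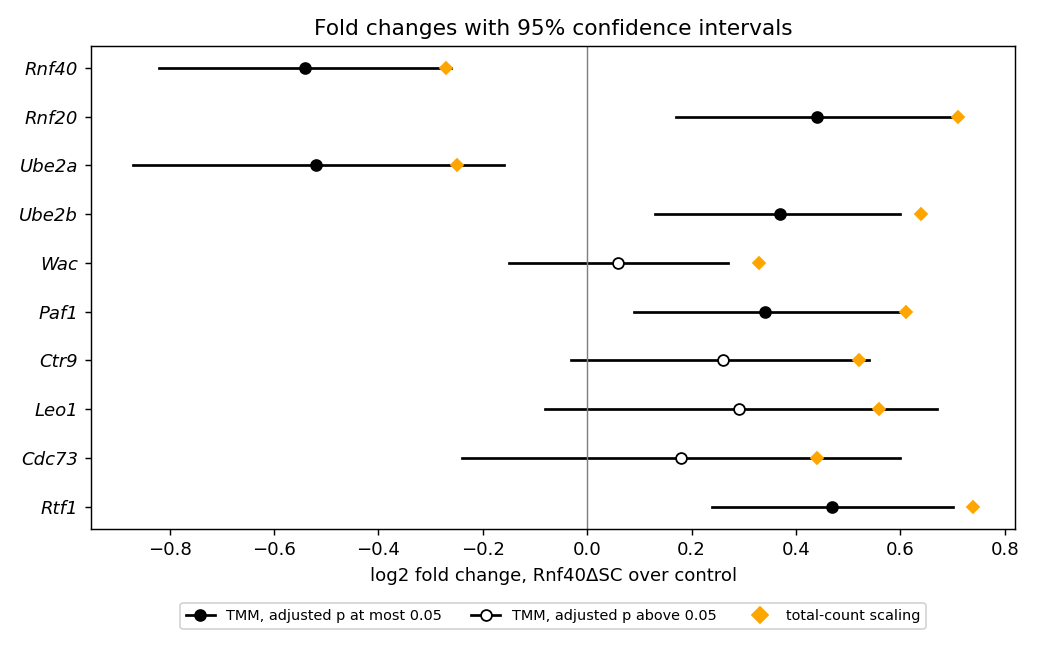
Log2 fold changes of Rnf40ΔSC over control (horizontal axis) for the 10 genes after TMM, with lines for 95% confidence intervals, and after total-count scaling (diamonds). Filled circles had an adjusted p of at most 0.05, and *Rnf40* (-0.54 after TMM and -0.27 by totals) and *Ube2a* (-0.52 and -0.25) are the only genes of the 10 to the left of 0.

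*Rnf40*, the targeted subunit of the ligase, had 130, 126 and 142 normalised counts in control replicates 1, 2 and 3 and 90.2, 90.4 and 94.2 in Rnf40ΔSC replicates 1, 2 and 3. Every Rnf40ΔSC library was below every control library, and the Rnf40ΔSC libraries lay close together. The mean was 133 ± 8.15 in control and 91.6 ± 2.22 in Rnf40ΔSC nerves (SD, n = 3 libraries each), so that 0.688 of the control level remained in the fit (log2 fold change -0.54, 95% confidence interval -0.82 to -0.26, adjusted p = 0.00242 from edgeR). By library totals the log2 fold change was -0.27 (adjusted p = 0.12 from edgeR, the highest over all alternatives, which ran from 0.00235). The counts cover the whole gene, and a transcript without exons 3 and 4 would still yield reads from the other exons. They therefore check the genotype labels through the amount of *Rnf40* RNA and not through the deleted exons. In nerve pools, fewer cells of a type and less RNA per cell cannot be told apart, and cells without Cre contribute *Rnf40* RNA as well.

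*Rnf20*, whose product pairs with RNF40, had 127, 127 and 112 normalised counts in control replicates and 176, 184 and 137 in Rnf40ΔSC replicates 1, 2 and 3. All Rnf40ΔSC libraries exceeded all controls, and replicate 3 was the lowest library in each genotype. The log2 fold change was 0.44 (95% confidence interval 0.17 to 0.71, adjusted p = 0.00998 from edgeR). The call was lost without control replicate 3 (adjusted p = 0.087) or Rnf40ΔSC replicate 1 (0.057) and with DESeq2 (0.0665 without and 0.0648 with its prior), within a range of 5.82e-05 to 0.087 over all alternatives.

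The ratio of *Rnf20* to *Rnf40* raw counts within each library does not depend on library scaling. It was chosen with the opposite directions of these genes known, so it describes that difference on another scale and adds no separate support. The ratio was 0.976, 1.01 and 0.788 in control replicates and 1.95, 2.04 and 1.46 in Rnf40ΔSC replicates. All Rnf40ΔSC ratios exceeded all control ratios, with replicate 3 lowest in each genotype. The mean ratio was 0.924 ± 0.119 in control and 1.82 ± 0.314 in Rnf40ΔSC nerves (SD, n = 3 each), a difference of 0.97 in the mean log2 ratio that exceeded the SD of log2 ratios in either genotype (0.19 and 0.26; 1.96-fold, exact two-sided permutation p = 0.1, the smallest that 3 against 3 libraries allow).

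*Ube2a*, which encodes an E2 enzyme, had 81, 110 and 108 normalised counts in control replicates and 61.3, 95.2 and 59.8 in Rnf40ΔSC replicates. The genotypes overlapped, since Rnf40ΔSC replicate 2 exceeded control replicate 1. The log2 fold change was -0.52 (95% confidence interval -0.87 to -0.16, adjusted p = 0.0212 from edgeR). The call was lost without control replicate 2 (adjusted p = 0.119), control replicate 3 (0.128), Rnf40ΔSC replicate 1 (0.134) or Rnf40ΔSC replicate 3 (0.0797), with DESeq2 (0.156 without and 0.153 with its prior) and by library totals (0.275), within a range of 0.00182 to 0.275. As *Ube2a* is X-linked and the methods name mice of both sexes, sex-linked genes were read beside it, chosen after values were seen. Raw counts of the Y-linked *Ddx3y* were 0, 83 and 100 in control replicates and 111, 0 and 68 in Rnf40ΔSC replicates. Those of *Xist*, which is expressed from the inactive X chromosome, were 631, 320 and 407 in control replicates and 692, 1179 and 1167 in Rnf40ΔSC replicates. Control replicate 1 and Rnf40ΔSC replicate 2 thus had no *Ddx3y* reads, and they were the lowest control and the highest Rnf40ΔSC library for *Ube2a*. With the presence of Y-linked reads as a term of the fit, an alternative added after the data were seen, 6 of the 10 genes were called, beside 31.9% of all genes.

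*Ube2b*, which encodes the paralogous E2 enzyme, had 135, 175 and 152 normalised counts in control replicates and 205, 206 and 190 in Rnf40ΔSC replicates. Every Rnf40ΔSC library was above every control library. The log2 fold change was 0.37 (95% confidence interval 0.13 to 0.60, adjusted p = 0.0158 from edgeR). The call was lost without control replicate 1 (adjusted p = 0.0943), control replicate 3 (0.0743) or Rnf40ΔSC replicate 1 (0.0558) and with DESeq2 (0.0885 without and 0.0864 with its prior), within a range of 4.65e-05 to 0.0943.

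The balance of the paralogs was again read within each library, as a description of the same counts on another scale. The ratio of *Ube2a* to *Ube2b* raw counts was 0.6, 0.627 and 0.706 in control replicates and 0.298, 0.462 and 0.315 in Rnf40ΔSC replicates. All Rnf40ΔSC ratios were below all control ratios, even though *Ube2a* itself overlapped. The mean ratio was 0.645 ± 0.0552 in control and 0.359 ± 0.09 in Rnf40ΔSC nerves (SD, n = 3 each), and the mean log2 ratio differed by -0.87 (exact two-sided permutation p = 0.1, the smallest possible with 3 against 3). This difference was larger than the SD of the log2 ratios, which was 0.12 in control and 0.34 in Rnf40ΔSC nerves.

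**Figure D3:**
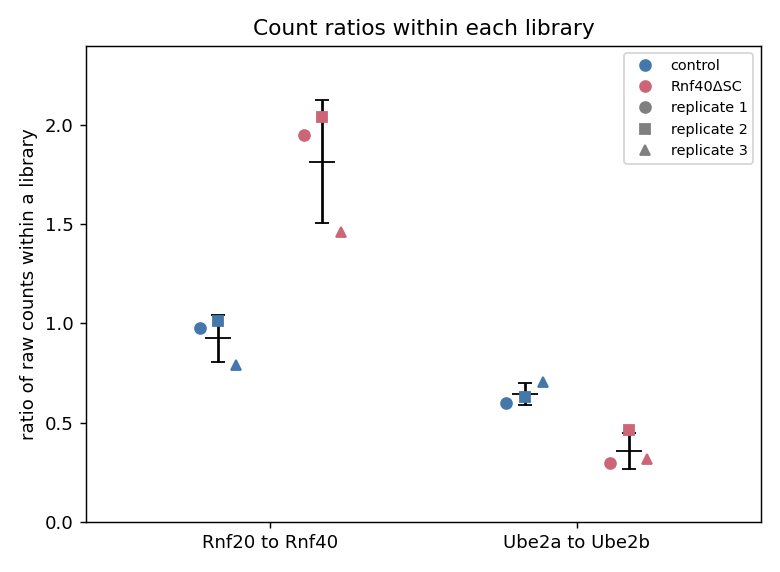
Ratios of raw counts within each library (vertical axis) for *Rnf20* to *Rnf40* and *Ube2a* to *Ube2b*, with a bar for the mean and whiskers for the SD of 3 libraries. The first ratio runs from 0.788 to 1.01 in control and from 1.46 to 2.04 in Rnf40ΔSC libraries, and the other from 0.6 to 0.706 and from 0.298 to 0.462.

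*Wac*, the adaptor between ligase and polymerase, had 245, 264 and 246 normalised counts in control replicates and 281, 242 and 260 in Rnf40ΔSC replicates. The genotypes overlapped fully, with both the highest and the lowest library among the Rnf40ΔSC replicates. Its log2 fold change was 0.06 (95% confidence interval -0.15 to 0.27, adjusted p = 0.718 from edgeR). By library totals it was 0.33 and called (adjusted p = 0.0111, over a range of 0.0111 to 0.954), a value close to the shift of all genes under that scaling. Leaving out single libraries gave 0.01 (without Rnf40ΔSC replicate 1) to 0.11 (without Rnf40ΔSC replicate 2).

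Among the PAF1 complex genes, *Rtf1*, whose product contacts the ligase machinery and stimulates H2B ubiquitination, had 175, 148 and 169 normalised counts in control replicates and 214, 235 and 230 in Rnf40ΔSC replicates. The genotypes were well separated. The log2 fold change was 0.47 (95% confidence interval 0.24 to 0.70, adjusted p = 0.00132 from edgeR), and *Rtf1* was the only gene of the 10 called under all 15 alternatives, with adjusted p from 3.94e-06 to 0.0186. *Paf1*, which encodes the subunit that names the complex, had 116, 139 and 154 normalised counts in control replicates and 192, 164 and 169 in Rnf40ΔSC replicates. Here the gap was narrow, as the highest control nearly reached the lowest Rnf40ΔSC library. Its log2 fold change was 0.34 (95% confidence interval 0.09 to 0.60, adjusted p = 0.0347 from edgeR). The call was lost without control replicate 1 (adjusted p = 0.174), control replicate 2 (0.0837) or Rnf40ΔSC replicate 1 (0.161) and with DESeq2 (0.15 without and 0.147 with its prior), within a range of 0.000181 to 0.174.

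The other genes of the complex overlapped between the genotypes and were not called. *Ctr9*, which encodes the scaffold subunit, had 95.3, 113 and 119 normalised counts in control and 142, 143 and 113 in Rnf40ΔSC replicates, with only Rnf40ΔSC replicate 3 within the control range. Its log2 fold change was 0.26 (95% confidence interval -0.03 to 0.54, adjusted p = 0.171 from edgeR), and it was called without Rnf40ΔSC replicate 3 (0.0403) and by library totals (0.00287), over a range of 0.00287 to 0.422. *Leo1*, which encodes a subunit that binds chromatin, ranged from 45.6 to 65.1 normalised counts in control and from 62.7 to 74.5 in Rnf40ΔSC libraries. Its log2 fold change was 0.29 (95% confidence interval -0.08 to 0.67, adjusted p = 0.244 from edgeR), and only library totals gave a call (0.0145, over a range of 0.0145 to 0.7). Without control replicate 3 its log2 fold change was 0.13. *Cdc73*, which encodes parafibromin, ranged from 42.9 to 49.1 normalised counts in control and from 39.9 to 61.3 in Rnf40ΔSC libraries. Its log2 fold change was 0.18 (95% confidence interval -0.24 to 0.60, adjusted p = 0.555 from edgeR), with no call under any of the 15 alternatives. The value was 0.04 without Rnf40ΔSC replicate 1 and 0.36 without Rnf40ΔSC replicate 3. All 5 genes of the complex had log2 fold changes above 0, with a median of 0.29 beside 0.00 over all genes tested, and 0.56 beside 0.27 with library totals.

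To compare levels between genes, normalised counts were divided by the length in kilobases of the transcript with the longest coding sequence. In control nerves the order of these levels per kilobase was *Ube2b* (86.1 ± 11.3), *Paf1* (68.1 ± 9.61), *Ube2a* (59.9 ± 9.7), *Wac* (48.3 ± 2.04), *Rtf1* (35.1 ± 2.98), *Rnf40* (32 ± 1.96), *Rnf20* (28.3 ± 2.06), *Leo1* (26.1 ± 4.69), *Ctr9* (25.4 ± 2.86) and *Cdc73* (3.93 ± 0.275), each as mean and SD over 3 libraries. Neighbours in this order overlapped between libraries except for *Wac* against *Rtf1*, *Rnf40* against *Rnf20* and *Ctr9* against *Cdc73*. By transcript length the order of the ligase subunits was the other way round in Rnf40ΔSC nerves. There *Rnf20* had 38.5 ± 5.85 normalised counts per kilobase and *Rnf40* had 22.1 ± 0.534 (SD, n = 3 each), and *Rnf40* took place 9 of 10 in place of 6. With merged exons of all transcripts as the length, a choice added after the data were seen, *Rnf40* took place 5 in control and place 8 in Rnf40ΔSC nerves. On that scale *Rnf20* had 16.8 ± 1.22 normalised counts per kilobase in control nerves, where *Rnf40* had 32 ± 1.96 (SD, n = 3 each). In Rnf40ΔSC nerves *Rnf20* had 22.8 ± 3.46 and *Rnf40* 22.1 ± 0.534 normalised counts per kilobase of merged exons (SD, n = 3 each), and their libraries overlapped, so that the order there is clear by transcript length only. On the scale per kilobase of transcript, 63.8% of the tested genes with a known length lay below *Rnf40* in control nerves and 51.5% in Rnf40ΔSC nerves. For *Cdc73* these shares were 7.18% and 8.81%, and its transcript of 11589 bases is the longest of the 10.

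**Figure D4:**
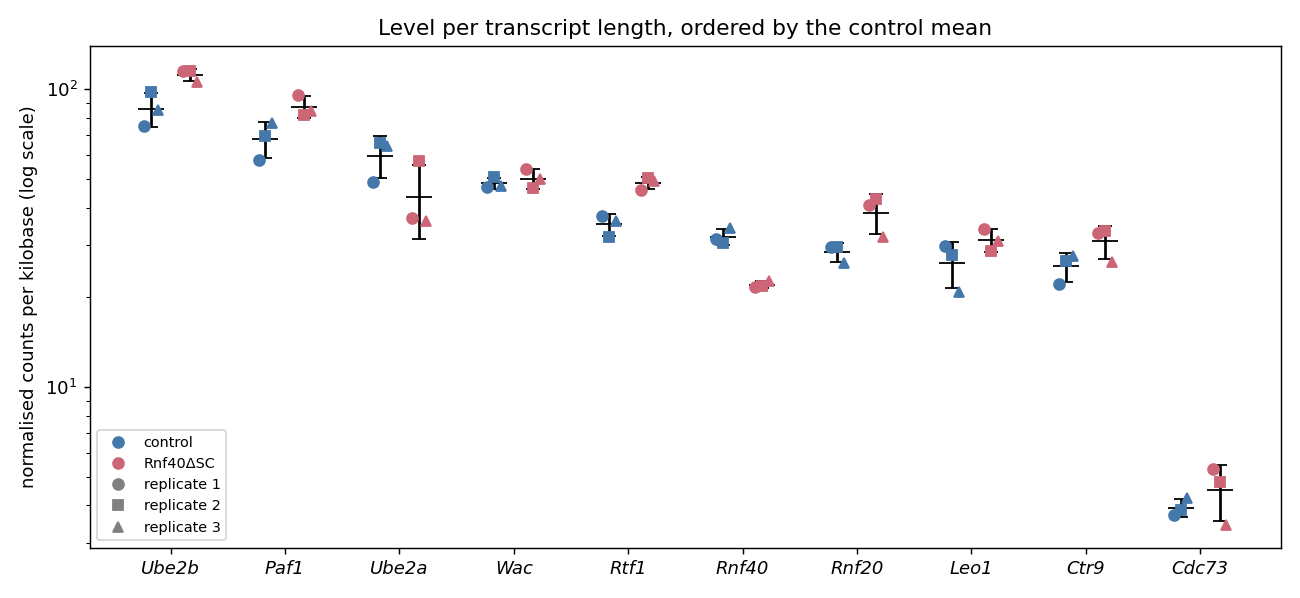
Normalised counts per kilobase of transcript (vertical axis, log scale) in 3 control and 3 Rnf40ΔSC libraries, with genes ordered by the control mean and bars and whiskers for mean and SD. With these lengths *Rnf40* and *Rnf20* change their order between the genotypes, and *Cdc73* lies lowest, between 3.44 and 5.29.

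The nearest genes on either side of *Rnf40* were read because they flank the altered locus. *Gm166*, which starts 102 bases upstream on the opposite strand, had 0.61 as its log2 fold change (adjusted p = 0.294 from edgeR), and *Zfp629*, which lies 3425 bases downstream, had 0.19 (adjusted p = 0.468 from edgeR). With single libraries left out, *Gm166* ran from 0.26 (without Rnf40ΔSC replicate 3) to 0.83 (without Rnf40ΔSC replicate 2). *Zfp629* ran from 0.10 (without Rnf40ΔSC replicate 2) to 0.29 (without control replicate 3). Neither was called with TMM, and *Zfp629* was called by library totals only (0.042, over a range of 0.042 to 0.758). *B3galt2*, which encodes a galactosyltransferase, lies inside *Cdc73* on the opposite strand without sharing exons. It had 74.6, 81.7 and 81.8 normalised counts in control and 28.2, 39.8 and 27.1 in Rnf40ΔSC replicates, with no overlap (log2 fold change -1.36, adjusted p = 1.25e-06 from edgeR). *Cdc73* itself was not called. The symbol *Cdc73* also belongs to a shorter annotated gene entry that shares 1447 exonic bases with it, so that its counts are uncertain to the extent that reads were dropped or divided there.

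Among 9336 genes whose base mean was 20 or more, those whose log2 CPM followed *Rnf40* most closely over the 6 libraries were *Sbk1*, *Epb4.1l3*, *Sh3bgrl3*, *Mien1* and *Tnfaip8l1*, with Pearson correlations from 0.994 to 0.998. Their log2 fold changes ran from -0.97 to -0.35. For *Rnf20* they were *Trim8*, *Emc2*, *1810022K09Rik*, *Tm2d1* and *Rabgap1*, with correlations from 0.991 to 0.994 and log2 fold changes from 0.28 to 1.06. These correlations are descriptions over libraries of both genotypes.

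Other genes around the machinery were read from lists. *Wdr61*, which encodes a further PAF1 complex subunit, was higher (63.1 ± 3.9 normalised counts in control and 89.6 ± 21.4 in Rnf40ΔSC nerves, SD, n = 3 each; log2 fold change 0.50, adjusted p = 0.0257 from edgeR). It was the only one called of the 5 tested partners of the PAF1 complex and the E2 enzymes, whose median log2 fold change was 0.00, and 2 of the 5 were called with library totals (median 0.27). Both counts compare with 31.6% and 40.9% of all genes called, which puts them near or under that background. Of 4 tested genes that supply ubiquitin, only *Uba1*, the ubiquitin-activating enzyme, was called (0.25, adjusted p = 0.042 from edgeR; median of the list 0.21), and 3 were called with library totals (median 0.48), against the same shares of all genes. The call of *Wdr61* was lost without control replicate 1 (adjusted p = 0.0814), 2 (0.0738) or 3 (0.0678) or Rnf40ΔSC replicate 1 (0.28, with a log2 fold change of 0.29) and with DESeq2 (0.14 without and 0.137 with its prior), within a range of 0.00055 to 0.28 over all alternatives. That of *Uba1* was lost without control replicate 2 (adjusted p = 0.141) or 3 (0.154) or Rnf40ΔSC replicate 2 (0.0858) or 3 (0.0636), with DESeq2 (0.0828 without and 0.0807 with its prior) and with the replicate number as a block (0.057), within a range of 5.53e-05 to 0.154.

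Genes of RNA polymerase II, on which the machinery rides, were higher for 5 of 10 tested subunits and lower for 0, with a median log2 fold change of 0.71 beside 0.00 over all genes, of which 15.4% were called higher. With library totals 9 of the 10 subunits were higher, with a median of 0.97, beside 33.1% of all genes called higher and a median of 0.27. DESeq2 called only 2 subunits higher with or without its prior, beside 7.94% of all genes without and 8.33% with the prior. *Polr2d* had 38.1, 39.2 and 43 normalised counts in control and 120, 105 and 80.6 in Rnf40ΔSC replicates. The genotypes were far apart (log2 fold change 1.33, adjusted p = 5.41e-07 from edgeR). *Polr2i* (0.95, adjusted p = 0.0437) and *Polr2f* (0.79, adjusted p = 0.00537 from edgeR) were the next in size among the subunits called. *Polr2i* had raw counts of 4, 7 and 17 in control and 24, 16 and 25 in Rnf40ΔSC replicates. It passed the low-count filter by way of the Rnf40ΔSC libraries, so that its call depends on the group in which it was high. *Polr2c* (5, 12 and 12 against 29, 15 and 19) and *Polr2h* (8, 8 and 11 against 22, 24 and 16) passed likewise. *Polr2l* (4, 7 and 10 against 6, 7 and 4) was not tested, so that the median of 0.71 covers only subunits kept by this filter. The call of *Polr2i* was lost without control replicate 1 (adjusted p = 0.146) or 2 (0.165) or Rnf40ΔSC replicate 1 (0.0929), 2 (0.0723) or 3 (0.0724), with DESeq2 (0.203 without and 0.194 with its prior) and without a filter on low counts (0.0507), within a range of 0.00734 to 0.203, and its log2 fold change was 1.46 without control replicate 3. DESeq2 did not call *Polr2f* either (0.057 without and 0.0545 with its prior, over a range of 0.000201 to 0.057). *Polr2a*, which encodes the largest subunit, had a log2 fold change of -0.23 and was not called (adjusted p = 0.0559 from edgeR). Among pausing and elongation factors, 6 of 20 tested were higher and 0 lower (median 0.22), and 11 were higher with library totals (median 0.49), against the same shares of all genes. DESeq2 called 4 of the list higher with or without its prior, beside 7.94% of all genes without and 8.33% with the prior. The factors with the largest rise were the histone chaperone gene *Supt6* (0.71, adjusted p = 3.46e-07) and *Nelfa* of the pausing factor NELF (0.68, 0.0174 from edgeR). The call of *Nelfa* was lost without control replicate 1 (0.0584), control replicate 2 (0.0777) or Rnf40ΔSC replicate 3 (0.0984) and with DESeq2 (0.118 without and 0.115 with its prior), within a range of 0.00087 to 0.118.

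In the super elongation complex, which releases paused polymerase, 3 of 7 tested genes were higher and 1 was lower (median 0.40), beside 15.4% and 16.2% of all genes, and 6 were higher and 1 lower with library totals (median 0.67). With DESeq2 1 was higher and 1 lower with or without its prior, beside 7.94% and 8.47% of all genes without the prior. The lower gene was *Ell2*, an elongation factor gene, with 160, 172 and 185 normalised counts in control and 69.5, 56.6 and 65.4 in Rnf40ΔSC replicates. The groups did not overlap (log2 fold change -1.43, adjusted p = 2.59e-10 from edgeR). Its paralog *Ell* was higher (0.43, adjusted p = 0.031), as were *Aff1* (0.50, 0.00244) and *Mllt3* (0.40, 0.0442 from edgeR). The call of *Ell* was lost without control replicate 1 (adjusted p = 0.131) or 2 (0.0706) or Rnf40ΔSC replicate 1 (0.0644) or 3 (0.0734) and with DESeq2 (0.151 without and 0.148 with its prior), within a range of 0.00044 to 0.151. That of *Mllt3* was lost without control replicate 1 (adjusted p = 0.189) or 3 (0.18) or Rnf40ΔSC replicate 1 (0.0822) or 2 (0.0887) and with DESeq2 (0.182 without and 0.178 with its prior), within a range of 0.00062 to 0.189, whereas *Aff1* was called without each library, with a log2 fold change of 0.32 without Rnf40ΔSC replicate 3.

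Of 9 tested genes of H2B deubiquitinases and their cofactors, which remove the mark, 2 were higher and 1 was lower (median 0.06), a share close to the 31.6% of all genes called, and 4 were higher and 0 lower with library totals (median 0.33). With DESeq2 1 was higher and 0 lower with or without its prior, beside 16.4% of all genes called without and 17.2% with the prior. *Usp7* (0.63, adjusted p = 1.83e-05 from edgeR) and *Usp12* (0.50, 0.0105) were higher and *Atxn7l3*, an adaptor gene of the SAGA deubiquitinase, was lower (-0.56, 0.0154). *Usp12* was not called without control replicate 3 (0.117) or with DESeq2 (0.0742 without and 0.0725 with its prior), within a range of 0.000155 to 0.117. *Atxn7l3* was not called without control replicate 1 (0.101) or Rnf40ΔSC replicate 1 (0.119), with DESeq2 (0.104 without and 0.102 with its prior) or by library totals (0.214), within a range of 0.00939 to 0.214. Of 11 genes of the histone H3 methyltransferases that act after H2B ubiquitination, 5 were higher and 0 lower (median 0.23), beside 15.4% of all genes higher, and 9 were higher with library totals (median 0.50), beside 33.1%. DESeq2 called only 2 of the 11 higher with or without its prior, beside 7.94% of all genes without and 8.33% with the prior. *Kmt2a* had 216, 250 and 242 normalised counts in control and 465, 439 and 434 in Rnf40ΔSC replicates, far apart (log2 fold change 0.91, adjusted p = 2.47e-09 from edgeR), followed by *Dpy30* (0.62, 0.00631) and *Rbbp5* (0.48, 0.0287). *Dpy30* was not called without Rnf40ΔSC replicate 1 (0.0558) or with DESeq2 (0.0549 without and 0.0528 with its prior), within a range of 0.00011 to 0.0558. *Rbbp5* was not called without control replicate 2 (0.11) or 3 (0.0773) or Rnf40ΔSC replicate 1 (0.0854) or 2 (0.0923) or with DESeq2 (0.146 without and 0.143 with its prior), within a range of 0.000591 to 0.146. The ligases of histone H2A, which ubiquitinate another core histone, had 1 of 7 tested genes called, *Pcgf2* (-1.02, adjusted p = 0.00081 from edgeR), and a median of -0.05. With library totals 2 were higher and 1 lower, and the median was 0.21. These counts stand beside 31.6% of all genes called with TMM and 40.9% with library totals. *Egr2*, a transcription factor gene of myelinating Schwann cells, was higher (0.36, adjusted p = 0.00579 from edgeR, and 0.0873 without control replicate 3, over a range of 7.93e-06 to 0.0873). *Trp53*, the other tested gene of its list, had a log2 fold change of 0.08 and was not called.

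**Figure D5:**
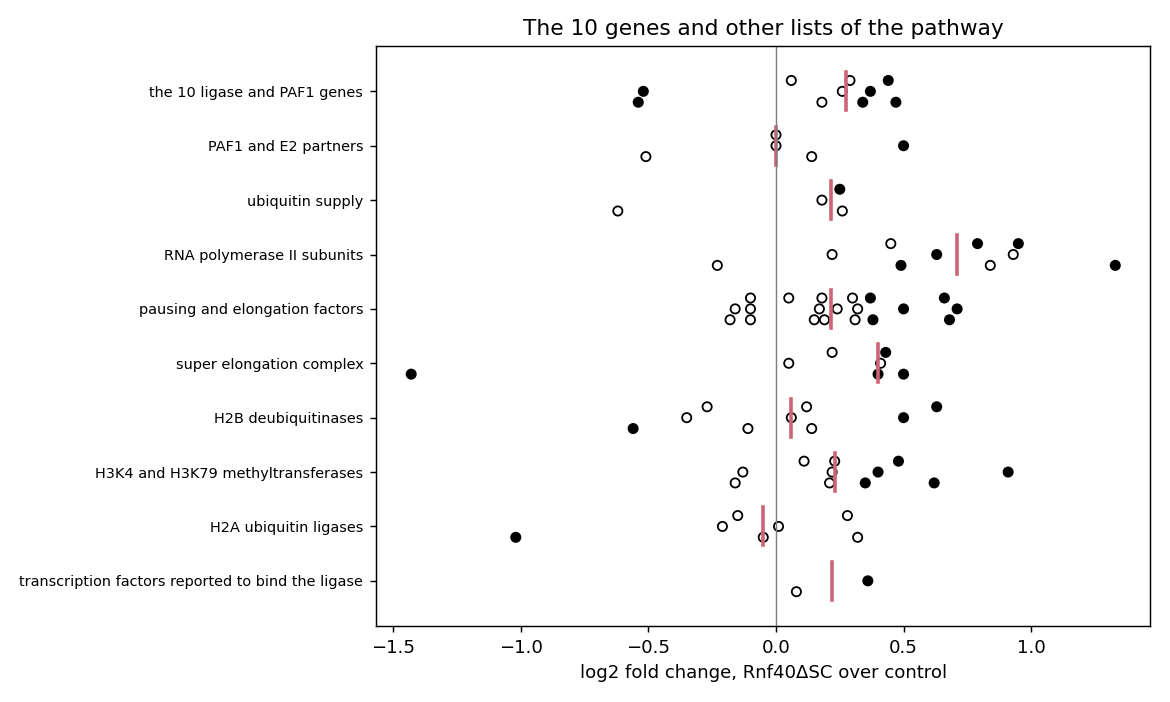
Log2 fold changes of Rnf40ΔSC over control after TMM (horizontal axis) for the tested genes of the 10 ligase and PAF1 genes and of 9 further lists, with filled circles for an adjusted p of at most 0.05 and a bar for each list's median. The bar of the polymerase subunits lies at 0.71 and that of the 10 genes at 0.27, beside 0.00 over all genes.

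Cell type markers moved with the genotype as well. The tissue markers *Sox10* (-0.79, adjusted p = 8.80e-09) and *S100b* (-0.89, 3.00e-09 from edgeR) fell, as did all 6 Schwann cell genes listed, none of which was at 0. Genes of other nerve cells were called lower for 4 of 5 fibroblast, 3 of 4 perineurial, 4 of 6 endothelial, 3 of 5 mural and 6 of 8 tested macrophage genes, beside 16.2% of all genes called lower. By library totals 1, 2, 1, 1 and 2 of these lists' genes were called lower and 1 fibroblast gene was called higher, beside 7.74% and 33.1% of all genes. DESeq2 called 3, 2, 4, 3 and 3 of them lower with or without its prior, beside 8.47% of all genes without and 8.84% with the prior. The most abundant were *Col3a1* (-0.49, adjusted p = 5.30e-08), *Itgb4* (-1.69, 4.77e-16), *Cdh5* (-0.51, 0.000119, and 0.0598 by library totals, over a range of 1.12e-06 to 0.0598), *Pdgfrb* (-0.65, 3.39e-06) and *Csf1r* (-0.63, 0.000294 from edgeR). Skeletal muscle genes summed to 4893, 3750 and 2771 CPM in control and 108, 269 and 3478 CPM in Rnf40ΔSC replicates, with 0 of 15 called by edgeR, 0 by DESeq2 with or without its prior and 0 at an unadjusted p under 0.05, and with *Myh4* the most abundant (-2.16, adjusted p = 0.33 from edgeR). Without Rnf40ΔSC replicate 3, *Myh4* had -5.23 (adjusted p = 0.00842, over a range of 0.00842 to 0.52). Adipocyte genes were called lower for 3 of 6 tested, beside 16.2% of all genes, and for 2 by library totals, beside 7.74%, led by *Plin1* (-1.31, adjusted p = 0.000437), with *Fabp4* most abundant (-0.43, 0.33 from edgeR). *Fabp4* had -0.21 without control replicate 3. For macrophages, the paper found by staining a larger share of Iba1-positive cells in Rnf40ΔSC nerves at this age. That is a measure of cells and not of RNA, and why it differs from the lower macrophage genes was not tested. The part of all these cell types in the values of the ligase and PAF1 genes was not tested. Without Rnf40ΔSC replicate 3, the only Rnf40ΔSC library with much muscle RNA, 6 of the 10 genes were called, with *Ctr9* in place of *Ube2a*, beside 34% of all genes.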

How the data were processed

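RNA was measured in 6 libraries from sciatic nerves of mice aged 14 days, grouped by genotype and numbered by the sample labels. The authors aligned reads to mm9 with TopHat and used HTSeq to count those that mapped uniquely, and the deposited values are unnormalised counts for each gene. The submitters' notes name both mm9 and mm10. The annotation and strand setting of the counting are not given in the sources used here, so that overlapping genes are uncertain, and reads that map to several places were left out. Of the entries, 0 name no gene. Coordinates and lengths are from the GENCODE annotation of mm9.

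Testing used edgeR 4.0.16 in R 4.3.3 (filterByExpr, TMM, robust quasi-likelihood fit, genotype as the only term, Benjamini-Hochberg adjustment, limma 3.58.1). A call needed an adjusted p of at most 0.05. Ratios within libraries were tested by exact two-sided permutation in Python 3.11.15 with scipy 1.17.1. Log2 CPM for correlations used a prior count of 2. Summed CPM were scaled by TMM. The scripts were tested on simulated data.

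The genes named were the 10 members, up to 3 called genes per list and direction with the largest change, tissue markers and abundant genes of the marker lists, the 5 genes most like *Rnf40* and *Rnf20* in pattern, and genes next to *Rnf40* or overlapping a member. Lists held 162 further genes in 9 pathway and 11 marker lists. Members and lists were chosen with earlier results of these data known. *Polr2a*, *Trp53* and the sex-linked genes were named after their values were seen.

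Alternatives changed 1 choice at a time, except that DESeq2 also brings its own scaling and filter: RLE, upper quartile or total-count scaling, DESeq2 1.42.0 with or without a fold-change prior, omitting 1 library, a block for replicate number, all genes with a count or only those with 10 counts in every library, and a pseudocount of 0.5 for the ratios. A term for Y-linked reads and merged exon lengths were added after seeing the data.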

Additional observations from a re-analysis of the deposited data

How the results depend on the processing

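All 10 genes kept their direction under all 15 alternatives. Over the 18 results on members and call counts and the 62 other genes given alternatives, 0 reversed. List medians and genes named after their values were seen lie outside that tally. With library totals the median of the H2A ligases turned from -0.05 to 0.21, with 2 genes higher and 1 lower in place of 0 and 1. With DESeq2 without and with its prior, log2 fold changes were 0.45 and 0.43 for *Rnf20*, -0.49 and -0.46 for *Ube2a*, 0.38 and 0.37 for *Ube2b* and 0.36 and 0.34 for *Paf1*, none of them called, so that 2 and 2 of the 10 were called (1 higher and 1 lower in each). The same fits called 2267 and 2314 of all genes (1097 and 1123 higher, 1170 and 1191 lower) in place of 3597 (1756 higher, 1841 lower). Total-count scaling gave -0.27 for *Rnf40* and -0.25 for *Ube2a*, not called, and 0.33 for *Wac*, 0.52 for *Ctr9* and 0.56 for *Leo1*, called, which made 7 of the 10 higher and 0 lower, and 3766 higher and 880 lower among all genes. The cause of these differences was not tested.

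Leaving out single libraries gave 2 to 6 genes called of the 10 (1 to 5 higher, 1 to 2 lower) and 2732 to 3907 of all genes. Log2 fold changes ran from 0.37 to 0.58 for *Rnf20*, -0.73 to -0.40 for *Ube2a*, 0.29 to 0.46 for *Ube2b*, 0.25 to 0.44 for *Paf1* and 0.18 to 0.37 for *Ctr9*. Each such fit has fewer samples. The difference in log2 ratio ran from 0.86 to 1.12 for *Rnf20* to *Rnf40* and from -1.07 to -0.75 for *Ube2a* to *Ube2b*.

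Deviations from the genotype means had correlations of -0.0948, -0.015 and -0.0621 between control and Rnf40ΔSC libraries of the same replicate number. Between libraries of different numbers they ran from -0.0307 to 0.104. These values give no sign of pairing by replicate number, but with 3 libraries per genotype they cannot exclude it. With the replicate number as a block, 6 of the 10 genes and 3564 of all genes were called, and the log2 ratios differed by 0.97 and -0.87 (exact sign-flip p = 0.25 for each, the smallest that 3 pairs allow). Of the other genes named, *Uba1* lost its call under the block (adjusted p = 0.057 from edgeR). Over the 62 other genes given alternatives, a call was kept in 728 of the fitted alternatives and ended in 95. Genes not called remained so in 99 and gained a call in 5. Depth limits the members with few counts most, since *Cdc73* and *Leo1* have wide intervals that do not exclude a change.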

Other observations

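Proliferation genes were higher in Rnf40ΔSC nerves for 3 of 5 tested, with a median log2 fold change of 0.64, beside 15.4% of all genes called higher and a median of 0.00. The log2 fold change of *Mki67*, the most abundant of them and a marker of cycling cells, was 0.64 (adjusted p = 0.0014), *Top2a* had 0.65 (0.00561) and the replication gene *Mcm2* had 0.96 (0.000996 from edgeR), and their calls held without each library in turn. The other tested genes of the list, *Cdk1* (0.32, adjusted p = 0.468) and *Pcna* (-0.41, 0.3 from edgeR), were not called and are named after their values were seen. The T cell list had *Cd4* as its only tested gene, with raw counts of 0, 3 and 6 in control replicates and 14, 16 and 22 in Rnf40ΔSC replicates (log2 fold change 2.24, adjusted p = 0.000784 from edgeR), while *Cd3e*, *Cd3d* and *Cd3g*, named after their values were seen, had 0 to 4 raw counts in a library and *Cd8a* had 0 in every library. *Cd4* passed the low-count filter by way of the Rnf40ΔSC libraries, so that its call depends on the group in which it was high. The cells behind the counts of this list were not tested. Of 5 red blood cell genes, 4 were listed at 0, and the log2 fold change of *Alas2* was -0.65 (adjusted p = 0.144, and 0.00273 without Rnf40ΔSC replicate 3, over a range of 0.00273 to 0.558, from edgeR). The value was -1.30 without Rnf40ΔSC replicate 3 and -0.28 without Rnf40ΔSC replicate 1.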
